A study of Mus musculus with 9 samples.

Results

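The canonical histone genes are the mouse genes whose symbols start with Hist1h, Hist2h, Hist3h or Hist4h, and 68 of the 24421 symbols in the count table carried such a name. Of these, 38 had at least 10 counts in 3 or more of the 9 libraries and were kept among the 13228 genes tested. The kept genes encode linker histone H1 (5 of 6 symbols), H2A (7 of 18), H2B (11 of 19), H3 (7 of 12) and H4 (8 of 13). By cluster, 33 of 54 symbols were kept from Hist1 on chromosome 13, 3 of 10 from Hist2 on chromosome 3, 1 of 3 from Hist3 on chromosome 11 and the sole Hist4 symbol on chromosome 6.

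The libraries came from mouse bone marrow depleted of lineage-positive cells and expanded for 5 days in IL-3, IL-6 and SCF, which the submitters describe as giving blast-like myeloid cells. The 3 groups of 3 libraries each were Tet2-/-Flt3ITD cells exposed to SHP099 for 24 h, Tet2-/-Flt3ITD cells given vehicle, and wild-type (WT) C57BL/6 cells given vehicle. Both mutant groups carry the loss of Tet2, a methylcytosine dioxygenase, and the internal tandem duplication of Flt3, a receptor tyrosine kinase; all strains are labelled C57BL/6. SHP099 is an allosteric inhibitor of the phosphatase SHP2; the sources used here give no dose, vehicle, animal age or account of how the alleles were made. The mutant cultures were set up from individual mice, while for the WT cultures nothing says so, and p-values then measure the spread between these libraries.

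Canonical histone genes are transcribed in S phase to package newly made DNA, and their mRNAs end in a conserved stem-loop instead of a poly(A) tail. The stem-loop-binding protein Slbp and the U7 small nuclear ribonucleoprotein direct this 3′ end, and the coactivator Npat drives transcription of the clusters. Replacement histones such as H3.3 are made throughout the cell cycle from ordinary polyadenylated mRNAs. The library kit named in the labels captures polyadenylated RNA, so the counts sample the polyadenylated or carried-over part of canonical histone mRNA and not its whole amount.

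The stem-loop is the feature that sets these mRNAs apart, and it is shown here for the members that carry the largest counts or that passed a test. The annotated transcripts (GENCODE M21, GRCm38, the assembly also called mm10) were searched on the sense strand for the histone stem-loop motif, a stem of 6 paired bases closed by a loop of 4. A match was present in 46 of the 68 genes and in 29 of the 38 kept. The core was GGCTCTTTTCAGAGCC in 26 genes, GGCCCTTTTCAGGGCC in 7 and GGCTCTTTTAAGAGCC in 6. In the sequences that follow, capitals mark the 16 bases of stem and loop, with up to 5 flanking bases on each side in lower case.
Hist1h1c: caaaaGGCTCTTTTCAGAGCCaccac
Hist3h2a: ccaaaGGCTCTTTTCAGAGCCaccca
Hist1h3b: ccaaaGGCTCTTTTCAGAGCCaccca
Hist1h3c: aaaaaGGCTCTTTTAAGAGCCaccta
Hist2h2ac: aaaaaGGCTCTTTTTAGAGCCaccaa
Hist1h4d: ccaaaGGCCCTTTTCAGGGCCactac
Hist1h4i: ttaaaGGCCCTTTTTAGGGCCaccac
The core was identical in Hist1h1c, Hist3h2a and Hist1h3b, genes of 3 different histone classes. In Hist1h1c, Hist3h2a, Hist1h4d and Hist1h4i the annotated transcript ran on for 840, 1643, 770 and 330 nt past the stem-loop, against 74 nt in Hist1h3c, 57 nt in Hist2h2ac and 51 nt in Hist1h3b. The annotated transcripts of Hist1h2bc, Hist2h2be and Hist2h2bb hold no match, which says only that these letters are not in that annotation.

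The promoters of 62 of the 68 genes were found in RefSeq (GRCm38.p6; 250 bases before to 50 after the start). They were searched on both strands for TATAAA, the TATA box, for CCAAT, and for AAACACA, the core of the box known from H1 gene promoters. TATAAA was in 35 of the 62 and in 14.2% of 27025 RefSeq promoters. CCAAT was in 54 of the 62 and in 37.9% of all, and AAACACA was in 9 of the 62, among them 5 of 6 H1 genes, and in 7.14% of all. The promoters of Hist1h1c, the most abundant member, and Hist1h1b, an H1 gene with another pattern over the libraries, are printed to show that both carry the H1 motif. Capitals mark a match on either strand (ATTGG is CCAAT read on the other strand); the matches in the printed promoters do not overlap each other.
Hist1h1c, chr13:23738557-23738856, plus strand: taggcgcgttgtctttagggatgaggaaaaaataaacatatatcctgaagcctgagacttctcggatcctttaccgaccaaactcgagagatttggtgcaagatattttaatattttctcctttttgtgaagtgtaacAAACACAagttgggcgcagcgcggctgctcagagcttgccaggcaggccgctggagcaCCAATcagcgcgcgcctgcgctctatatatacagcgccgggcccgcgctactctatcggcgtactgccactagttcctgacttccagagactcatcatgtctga
Hist1h1b, chr13:21780576-21780875, minus strand: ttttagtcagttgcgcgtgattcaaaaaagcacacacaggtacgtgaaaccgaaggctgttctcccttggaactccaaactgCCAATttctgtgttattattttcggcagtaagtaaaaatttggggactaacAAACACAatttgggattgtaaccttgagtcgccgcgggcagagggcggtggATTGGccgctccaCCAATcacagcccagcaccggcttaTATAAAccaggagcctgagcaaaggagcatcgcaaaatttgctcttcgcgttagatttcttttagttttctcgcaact
Hist1h1b carries TATAAA as well, and the Hist1h1c window does not.

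The libraries held 27242168 to 45810089 counts, and SHP099 replicate 3 stood apart from the other 8. Rn45s, the precursor of ribosomal RNA, took 4.33% of its counts, against 0.734% and 0.658% in SHP099 replicates 1 and 2, 0.276% to 0.357% in mutant vehicle and 0.377% to 0.705% in WT libraries. Rmrp and Rpph1, RNA components of the RNase MRP and RNase P enzymes without a poly(A) tail, were at 21.1 and 21.8 CPM (counts scaled to sequencing depth, here to TMM-scaled library sizes) in that library; SHP099 replicates 1 and 2 had 2.63 and 1.5 CPM of Rmrp and 4.77 and 1.76 CPM of Rpph1. The other libraries ranged from 0.842 to 4.44 CPM of Rmrp and from 1.77 to 10.1 CPM of Rpph1. The histone results are therefore given with and without this library; the part that its high Rn45s has in the histone values was not tested. Tet2, the deleted gene, was at 11.0, 13.3 and 13.1 CPM in SHP099-treated mutant libraries, 14.6, 14.7 and 16.9 CPM in mutant vehicle and 34.9, 32.1 and 33.2 CPM in WT, lower in every mutant library than in any WT one; the labels do not say which part of Tet2 is deleted. All 15 genes of a myeloid progenitor marker list were tested, with summed levels of 18190 to 24500 CPM with SHP099, 17010 to 23610 CPM in mutant vehicle and 15420 to 19090 CPM in WT, while 8 of 10 lymphoid markers did not pass the count filter.

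Canonical histone mRNA was scarce in all groups. The 38 genes summed to 61.0, 63.3 and 125.7 CPM in SHP099-treated mutant libraries, 47.1, 52.7 and 50.1 CPM in mutant vehicle and 86.0, 77.1 and 80.5 CPM in WT vehicle. All 3 SHP099 libraries thus lay above the mutant vehicle ones, the mutant vehicle libraries lay below all WT ones, and the SHP099 libraries spread on both sides of WT. Over all 68 symbols the sums were 63.0, 65.4 and 135.2 CPM with SHP099, 48.8, 54.7 and 51.6 CPM in mutant vehicle and 88.7, 79.3 and 82.6 CPM in WT. In raw counts the 38 genes took 2759, 2664 and 4869 counts with SHP099, 1497, 2233 and 1847 in mutant vehicle and 3000, 2123 and 3345 in WT, and 28 members averaged under 1 CPM. In bulk RNA, a smaller share of cells in S phase and less histone mRNA per cell cannot be told apart.

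**Figure D1:**
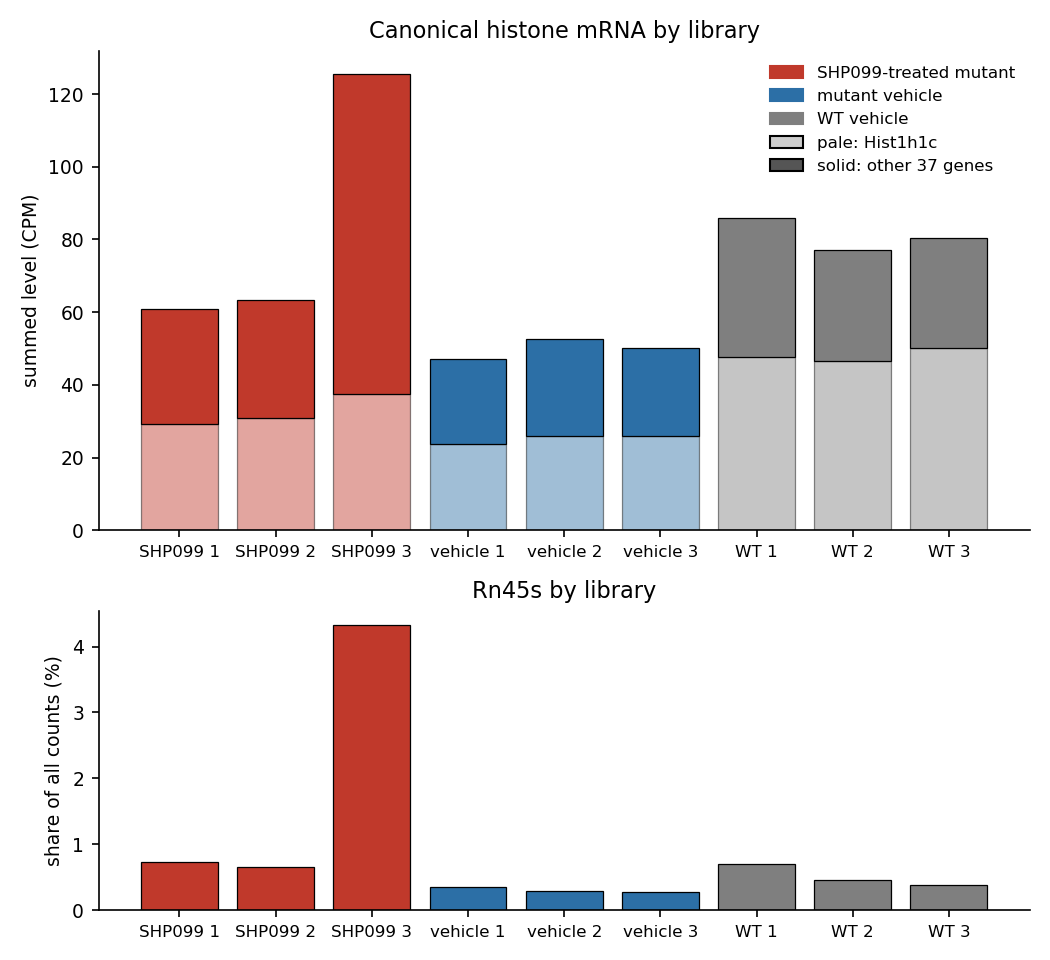
Summed level of the 38 kept canonical histone genes (CPM, upper plot; pale part Hist1h1c, solid part the other 37 genes) and share of all counts taken by Rn45s (%, lower plot) in each of the 9 libraries. SHP099 replicate 3 is highest in both plots, at 125.7 CPM and 4.33%, and the solid part is where its histone sum exceeds that of the other SHP099 libraries most.

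Hist1h1c, which encodes the linker histone H1.2 (chr13:23738808-23740367, plus strand), made up 48.2%, 48.6% and 29.9% of the sum with SHP099, 49.0% to 51.7% in mutant vehicle and 55.4% to 62.3% in WT. Per kilobase of annotated transcript it was also the most abundant member, at 22.6 CPM per kb over the 9 libraries. The H4 gene Hist1h4i followed at 5.12 CPM per kb and the H2B gene Hist1h2bc at 3.70 CPM per kb; the highest H2A and H3 genes were Hist1h2ak at 1.64 and Hist1h3c at 1.51 CPM per kb. Without Hist1h1c, the other 37 summed to 31.6, 32.5 and 88.1 CPM with SHP099, 23.5, 26.9 and 24.2 CPM in mutant vehicle and 38.3, 30.5 and 30.4 CPM in WT. In that sum SHP099 replicates 1 and 2 overlapped WT and replicate 3 lay far above every other library.

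Many canonical histone genes share long stretches of sequence, and this can limit which of them can be counted. Of the 30 symbols that were not kept, 11 had no count in any library and 19 had some. Hist3h2bb-ps, among the 19, is annotated as a processed pseudogene. The 11 were Hist1h2bq, Hist1h2br, Hist1h2ao, Hist1h2ap, Hist1h4m, Hist1h2ba, Hist1h2aa, Hist2h3c1, Hist2h3c2, Hist2h2aa1 and Hist2h2aa2. Over those 11, a median of 89.2% of the 50-base windows of the annotated transcript recurred in another canonical histone gene, against a median of 65.8% for the 19 and 39.8% for the 38 kept; among the 11 it ran from 2.35% in Hist1h2aa to every window in Hist2h2aa2. The sources used here do not say how reads that match several places were counted, so a count at 0 or a low one may be an undercount, and levels of members with much shared sequence are uncertain. The share was 0.00% in Hist1h1a, Hist1h1b, Hist2h2bb, Hist2h2be and Hist4h4, 8.54% in Hist1h1c and 86.4% in Hist1h2bn, the highest kept member. The annotated span of Hist1h2be also overlaps Hist1h1e on the same strand, and counts of that pair may be split. Of the 19 members with counts that were left out, 15 were highest in SHP099 replicate 3, led by Hist2h4 with 68 counts there, against 8 and 5 in the other SHP099 libraries, 2 to 5 in mutant vehicle and 3 to 17 in WT.

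**Figure D2:**
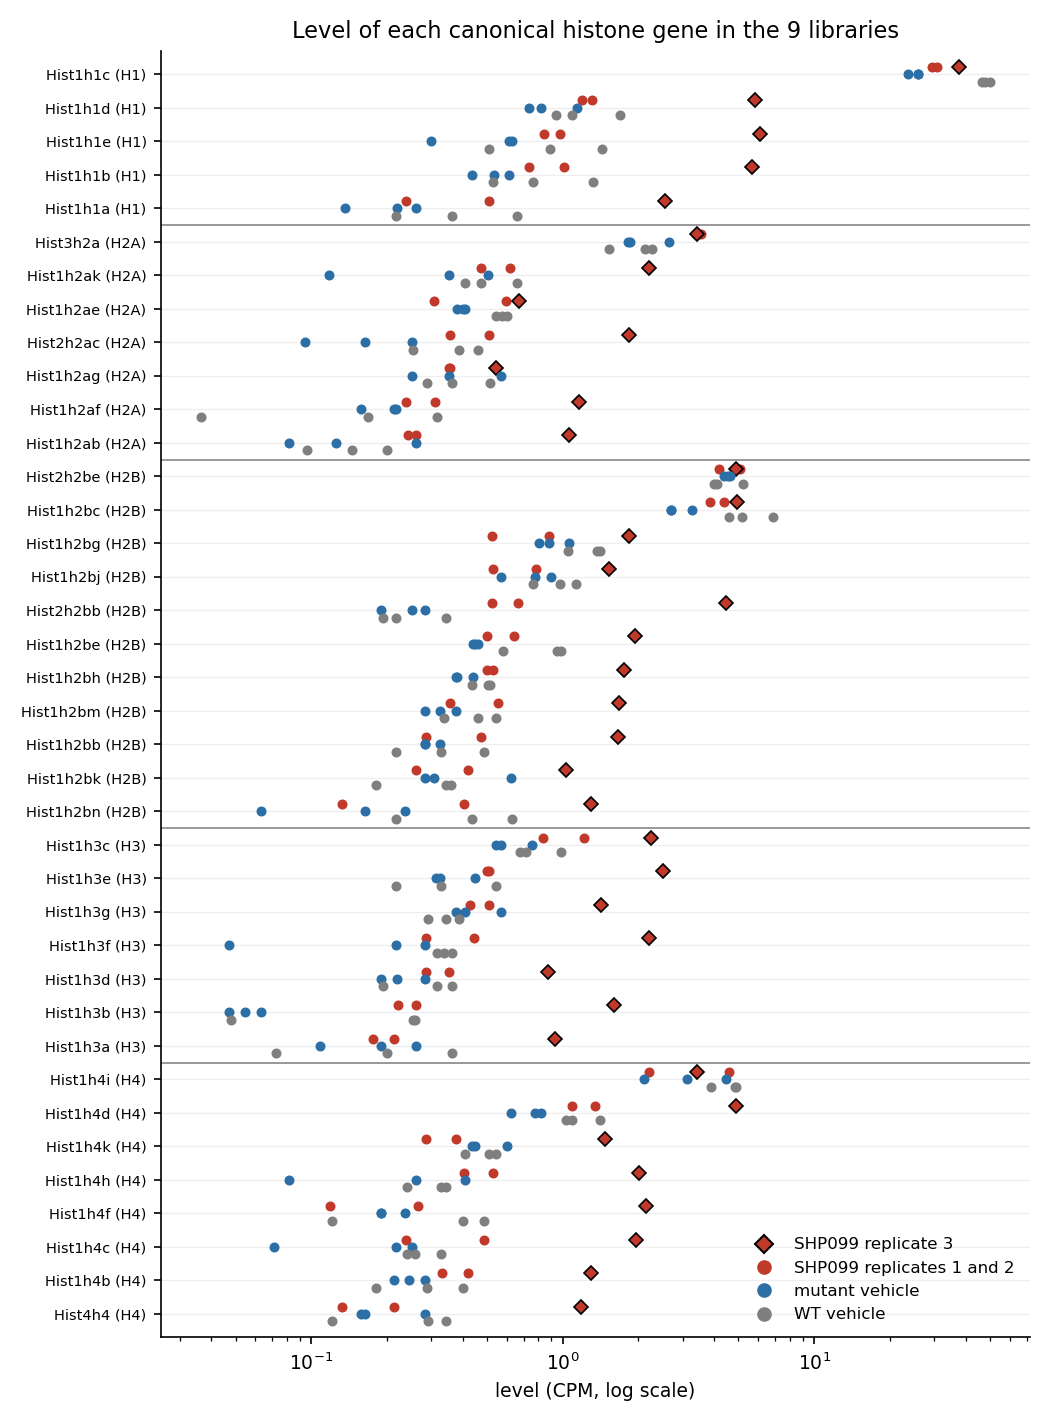
Level of each of the 38 kept genes (CPM, log scale) in the 9 libraries, grouped by the histone they encode, with SHP099 replicate 3 as a diamond. The diamond is the highest point for 32 of the 38 genes. The 6 exceptions are Hist1h1c, Hist1h2bc, Hist2h2be, Hist1h4i, Hist3h2a and Hist1h2ag. Hist1h3b, Hist1h3a and Hist4h4, among the 32, were kept only with that library.

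SHP099 replicate 3 held the highest level of 32 of the 38 genes, or 84.2%, where 12.6% of all tested genes peaked in that library. It exceeded 2 times the mean of SHP099 replicates 1 and 2 for 31 of the 38 genes, against 116 of 13228 tested genes (0.877%), so that canonical histone genes were 26.7% of all genes past this fold. Hist1h3b, Hist1h3a and Hist4h4, in both counts, passed the count filter only with this library. The 32 and the 31 are thus not free of that selection. The median ratio over the 38 genes was 4.10, and the range was 0.986 in Hist3h2a to 11.2 in Hist1h4f. Hist1h4f, an H4 gene, had 0.265, 0.119 and 2.14 CPM with SHP099, 0.189, 0.236 and 0.190 CPM in mutant vehicle and 0.487, 0.400 and 0.120 CPM in WT. The matching vehicle culture, mutant vehicle replicate 3, showed no such excess, with a median ratio of 0.939 to vehicle replicates 1 and 2.

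The excess ran through all 5 histone classes. It passed 2 times in 4 of 5 H1 genes, 4 of 7 H2A genes, 9 of 11 H2B genes, all 7 H3 genes and 7 of 8 H4 genes. Of these, the H3 genes Hist1h3b and Hist1h3a and the H4 gene Hist4h4 passed the count filter only with SHP099 replicate 3. The linker genes without Hist1h1c summed to 20.1 CPM in SHP099 replicate 3, against 3.67 and 3.14 CPM in the other SHP099 libraries, 2.01 to 2.22 CPM in mutant vehicle and 2.58 to 5.10 CPM in WT. Hist1h1e, for H1.4, had 6.12 CPM there, against 0.840 and 0.974 CPM in the other SHP099 libraries, 0.299 to 0.629 CPM in mutant vehicle and 0.509 to 1.43 CPM in WT. Hist1h1b, for H1.5, had 5.65 CPM in replicate 3, against 1.02 and 0.736 CPM in the other SHP099 libraries, 0.434 to 0.614 CPM in mutant vehicle and 0.530 to 1.32 CPM in WT. Those genes differ from Hist1h1c, whose 37.6 CPM in replicate 3 was 1.25 times the mean of the other SHP099 libraries.

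The 7 members at or under 2 times were Hist3h2a, Hist1h4i, Hist2h2be, Hist1h2bc, Hist1h1c, Hist1h2ae and Hist1h2ag. Among the 8 kept genes with the poly(A) signal AATAAA or ATTAAA in the last 60 bases of their annotated transcript, 3 passed 2 times, against 28 of the 30 without. By distance from the stem-loop to the annotated end, 11 of 15 genes with at least 100 nt passed, 13 of 14 with less, and 7 of 9 with no stem-loop in the annotation. The members with at least 1 CPM in 3 libraries passed in 4 of 9 cases and the rarer ones in 27 of 29; across the 38 genes, Spearman's rho of the ratio with the level in the other 8 libraries was −0.617, from points that share the same libraries and counting noise. Of 1622 tested genes that average under 1 CPM, 4.93% passed 2 times. The counts of members given here include Hist1h3b, Hist1h3a and Hist4h4, which passed the count filter only with SHP099 replicate 3. No gene of the replacement histone (11), histone mRNA processing (23), decay (12), chaperone (35) or S-phase (44) lists passed it, and their ratios spanned 0.566 to 1.22.

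**Figure D3:**
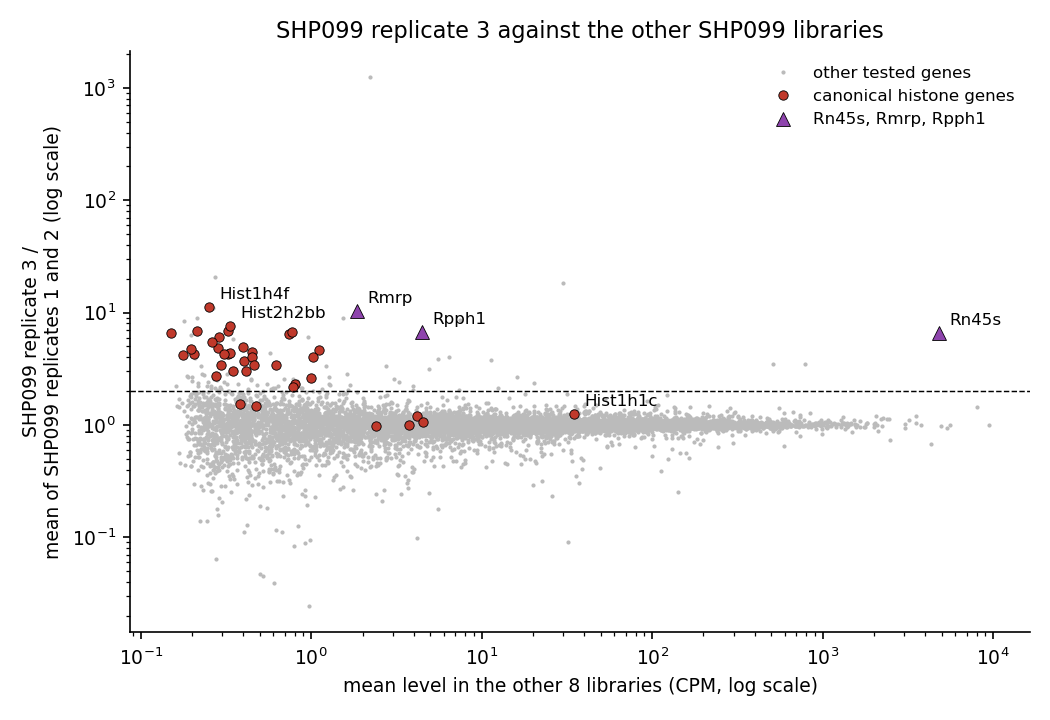
Ratio of SHP099 replicate 3 to the mean of SHP099 replicates 1 and 2 (log scale) against the mean level in the other 8 libraries (CPM, log scale) for the tested genes; 9 genes with a 0 that the ratio needs are not drawn, and the dashed line marks 2 times. Most canonical histone genes lie above the line at the low end of expression, while Hist1h1c and the other abundant members lie near 1.

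SHP099-treated mutant cells were compared with mutant vehicle to ask how the inhibitor changed histone mRNA. In the edgeR quasi-likelihood fit of all 9 libraries, 8 of 38 members rose and 0 fell at a Benjamini-Hochberg adjusted p below 0.05, where 10.3% of all tested genes rose, 11.5% fell and 21.8% were called in either direction. Hist1h3b, counted among the 8, reached 10 counts in the SHP099 libraries alone. It passed the count filter only through the group where it is high, and without it, 7 of 37 rose. Hist2h2ac and Hist2h2bb, also among the 8, reached 10 counts in fewer than 3 of the vehicle and WT libraries. They too passed the filter only with the SHP099 libraries, with or without replicate 3, so the 7 of 37 are not free of this selection. At an unadjusted p below 0.05 in edgeR, 25 rose and 0 fell, and the share of all genes at that threshold was not counted. DESeq2 called 16 higher and 0 lower, with 11.0% of genes higher. Members such as Hist1h2af, Hist1h4c, Hist1h2ab and Hist1h4b also passed the count filter only with the SHP099 libraries. These counts, and the median log2 fold change that follows, are not free of this selection. With a trend in transcript length and GC content removed, 2 rose, with 7.63% of genes higher. The fitted log2 fold change was above 0 for all 38, with a median of 1.39 against 0.02 over all tested genes. Without SHP099 replicate 3 the median was 0.46 over the 35 members still kept, 29 of them above 0, and 2 passed, Hist1h1c and Hist2h2bb, where 5.15% of genes rose, 8.33% fell and 13.5% were called; 7 rose and 0 fell at an unadjusted p below 0.05. Other single libraries also decide the count: 0 rose without mutant vehicle replicate 1 (16 at an unadjusted p below 0.05 in edgeR; 6.7% of all genes rose), 1 without mutant vehicle replicate 3 (6.05%), 3 without mutant vehicle replicate 2 (8.18%), 5 without WT replicate 2 (7.93%) and 15 without SHP099 replicate 2 (7.25%). The comparisons share libraries: mutant vehicle serves here and against WT, and the SHP099 libraries serve here and against WT.

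Same-numbered SHP099 and vehicle libraries deviated together, so the numbers pair the mutant cultures, and fits with the replicate number as a block were made. Over all 9 libraries the block called 7 members higher, with 10.8% of genes higher: Hist1h2bc, Hist1h3c and Hist1h4d no longer passed (adjusted p = 0.0517, 0.0560 and 0.0643, edgeR), and Hist1h3f and Hist1h4c passed (0.0418 and 0.0430). Without SHP099 replicate 3 this fit called 0 members, where only 2.87% of all tested genes rose and 5.05% fell (edgeR, 5 members higher at an unadjusted p below 0.05). On the mutant libraries alone the block called 28 of 36 members higher, with 21.5% of genes higher, and among them were all linker histone genes kept. In that fit 6 of the 36 had no vehicle library with 10 or more counts and passed the count filter through the SHP099 libraries alone. Of the other 30, 22 were called. Some of these, such as Hist1h1a, Hist1h2ab and Hist2h2bb, reached 10 counts in fewer than 3 vehicle libraries. They too passed the filter only with the SHP099 libraries, so the 22 are not free of this selection. Without the pair of replicate 3 the blocked fit of the mutant libraries called 5 of 28 members, with 14.7% of genes higher; these were Hist1h1c, Hist1h2bc, Hist3h2a, Hist2h2bb and Hist1h1d, at log2 fold changes of 0.27 to 1.10.

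Among linker histones, Hist1h1c had 29.4, 30.7 and 37.6 CPM with SHP099 and 23.6, 25.9 and 25.9 CPM in mutant vehicle. The groups did not overlap, with replicate 3 highest. Its log2 fold change was 0.37 ± 0.09 (SE, adjusted p = 0.0160, edgeR), and 0.25 ± 0.07 without SHP099 replicate 3 (adjusted p = 0.0426). Hist1h1d, Hist1h1e, Hist1h1b and Hist1h1a had fitted log2 fold changes of 1.61 to 2.37 with adjusted p of 0.0589 to 0.0789, and of 0.46 to 0.84 without replicate 3.

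Among H2A genes, Hist3h2a (chr11:58954685-58956830, plus strand), the sole kept gene of its cluster, had 3.40, 3.56 and 3.43 CPM with SHP099 and 1.86, 2.65 and 1.82 CPM in mutant vehicle. Here replicate 3 was level with the other treated libraries and all 3 lay above vehicle. The log2 fold change was 0.71 ± 0.19 (adjusted p = 0.0241, edgeR) with all libraries and 0.71 ± 0.22 (adjusted p = 0.0636) without replicate 3. Hist2h2ac (chr3:96220361-96220880) had 0.508, 0.356 and 1.83 CPM with SHP099 and 0.252, 0.0945 and 0.163 CPM in mutant vehicle, at a log2 fold change of 2.41 ± 0.68 (adjusted p = 0.0316, edgeR). It was 1.38 ± 0.44 without replicate 3 (adjusted p = 0.0681). Raw counts of Hist2h2ac were 8, 4 and 6 in mutant vehicle and 16, 7 and 16 in WT. It thus passed the count filter only with the SHP099 libraries, and its fold changes are a description. Hist1h2ak had 0.619, 0.475 and 2.19 CPM with SHP099 and 0.503, 0.118 and 0.353 CPM in mutant vehicle; these groups overlapped and the adjusted p was 0.0776 in edgeR.

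Among H2B genes, Hist1h2bc (chr13:23684199-23692908) had 3.87, 4.39 and 4.93 CPM with SHP099 and 2.71, 3.26 and 2.69 CPM in mutant vehicle, without overlap. The log2 fold change was 0.60 ± 0.17 (adjusted p = 0.0319, edgeR), and 0.50 ± 0.19 without replicate 3 (adjusted p = 0.111). Hist2h2bb (chr3:96269752-96270132) had 0.663, 0.523 and 4.47 CPM with SHP099 and 0.252, 0.283 and 0.190 CPM in mutant vehicle. All 3 treated libraries lay above vehicle, replicate 3 by far the most. The log2 fold change of 2.92 ± 0.84 (adjusted p = 0.0334, edgeR) became 1.27 ± 0.33 without that library (adjusted p = 0.0374). Raw counts of Hist2h2bb were 8, 12 and 7 in mutant vehicle and 12, 6 and 8 in WT. It thus passed the count filter only with the SHP099 libraries, with or without replicate 3, and its fold changes are a description. Hist2h2be, which shares the Hist2 cluster and the H2B class, had 4.20, 5.06 and 4.88 CPM with SHP099 and 4.37, 4.53 and 4.64 CPM in mutant vehicle, overlapping at a log2 fold change of 0.06 ± 0.13.

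Among H3 genes, Hist1h3c (chr13:23744973-23745602) had 1.22, 0.831 and 2.25 CPM with SHP099 and 0.755, 0.543 and 0.570 CPM in mutant vehicle, at a log2 fold change of 1.20 ± 0.36 (adjusted p = 0.0397, edgeR) with all libraries and 0.72 ± 0.28 (adjusted p = 0.121) without replicate 3. Hist1h3b had 0.221, 0.261 and 1.6 CPM with SHP099 and 0.0629, 0.0472 and 0.0543 CPM in mutant vehicle. In raw counts that was 10, 11 and 62 with SHP099 and 2 in each mutant vehicle library, so the gene was tested only because it is high with SHP099, and its fold change is a description: 3.57 ± 1.03 on the log2 scale, with all SHP099 libraries above vehicle. It has no value without replicate 3, since Hist1h3b, Hist1h3a and Hist4h4 passed the count filter only with that library. Among H4 genes, Hist1h4d (chr13:23581598-23582735) had 1.35, 1.09 and 4.88 CPM with SHP099 and 0.818, 0.779 and 0.624 CPM in mutant vehicle. That is a log2 fold change of 1.71 ± 0.53 (adjusted p = 0.0446, edgeR), or 0.71 ± 0.23 without replicate 3 (adjusted p = 0.0757). Hist1h4i had 2.21, 4.59 and 3.41 CPM with SHP099 and 2.11, 4.46 and 3.12 CPM in mutant vehicle: the libraries ran in parallel by replicate number and the log2 fold change was 0.06 ± 0.30. Hist4h4 had 0.133, 0.214 and 1.19 CPM with SHP099 and 0.157, 0.283 and 0.163 CPM in mutant vehicle, an overlap.

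Counted without a model, 18 of the 38 genes had all 3 SHP099 libraries above all 3 mutant vehicle libraries, where 20.4% of tested genes did. In the other direction, 0 lay below, where 20.4% of genes did as well. Among the 18, Hist1h2af, Hist1h3b, Hist1h4b, Hist2h2ac and Hist2h2bb reached 10 counts in fewer than 3 of the vehicle and WT libraries. They passed the count filter only with the SHP099 libraries, so the 18 are not free of this selection. With SHP099 replicates 1 and 2 alone the count above all vehicle libraries was also 18, where 24.4% of tested genes did so. The first condition implies the second, so the same genes had to recur, and the values show only that no further gene joined. Hist1h4k lay below in those 2 libraries, as did 23.3% of tested genes. The mean of SHP099 replicates 1 and 2 exceeded the vehicle mean for 31 of 38 genes. That count was not made over all tested genes, and the 38 include members that passed the count filter only with the SHP099 libraries. For the sum of all 38, those 2 libraries averaged 1.24 times mutant vehicle, against 1.67 times for all 3. Markers of mature cells moved in the same comparison, where the edgeR fit called 10.3% of all tested genes higher and 11.5% lower. In that fit 5 of 16 mature neutrophil, 5 of 15 monocyte and 5 of 14 mast cell and basophil markers rose with SHP099. Fewer rose in other lists: 2 of 11 megakaryocyte and 1 of 15 myeloid progenitor markers. Of 10 erythroid markers 0 rose and 1 fell. The mature neutrophil list summed to 28060 to 32860 CPM with SHP099 and 19310 to 20240 CPM in mutant vehicle, and the monocyte list to 4575 to 5284 CPM with SHP099 and 2661 to 3621 CPM in mutant vehicle. Their part in the histone values was not tested.

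**Figure D4:**
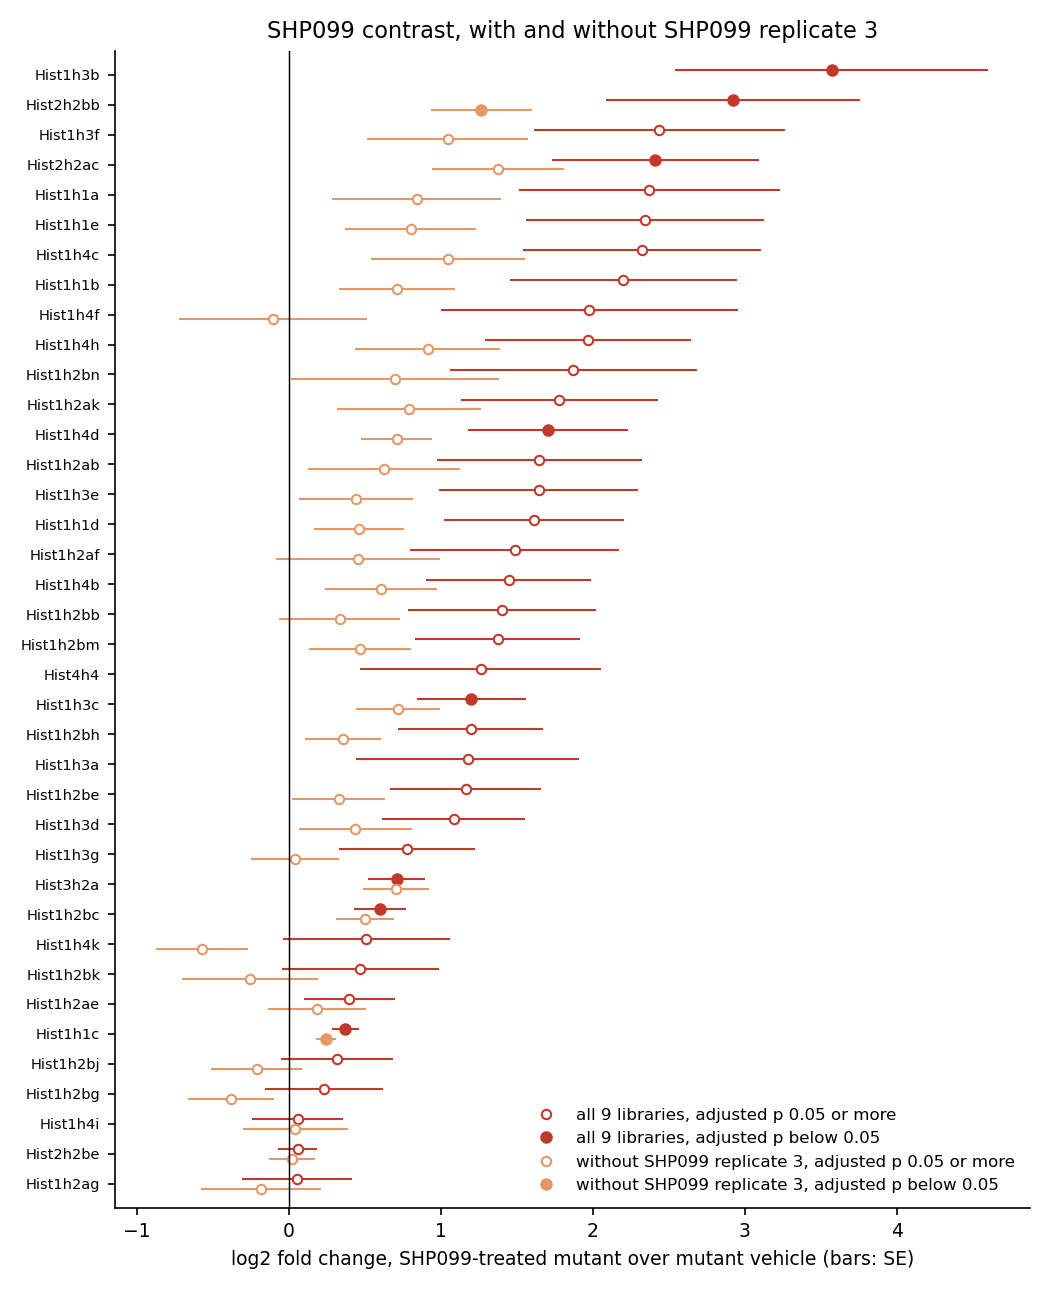
Log2 fold change of each kept gene, SHP099-treated mutant over mutant vehicle, with its standard error, from all 9 libraries (red) and without SHP099 replicate 3 (orange); filled points have an adjusted p below 0.05 in edgeR. Estimates are lower without the library, least so for Hist3h2a, Hist1h2bc, Hist1h1c, Hist1h4i and Hist2h2be, and 2 orange points are filled. Those of Hist1h4k, Hist1h2bg, Hist1h2ag, Hist1h2bj, Hist1h2bk and Hist1h4f fall below 0 without it.

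Mutant vehicle was compared with WT vehicle to ask how the genotype changed histone mRNA. Of the 38 members, 2 fell, Hist1h1c and Hist1h2bc, where 15.7% of tested genes fell, 14.6% rose and 30.3% were called in either direction. In the edgeR fit 0 rose, also at an unadjusted p below 0.05, and DESeq2 likewise called 2 lower and 0 higher. Hist1h1c had 23.6, 25.9 and 25.9 CPM in mutant vehicle and 47.6, 46.6 and 50.2 CPM in WT, so every mutant library lay well below every WT library. The log2 fold change was −0.94 ± 0.09 (adjusted p = 0.000218, edgeR). Hist1h2bc had 2.71, 3.26 and 2.69 CPM in mutant vehicle and 6.85, 4.58 and 5.18 CPM in WT, also without overlap, at −0.94 ± 0.17 (adjusted p = 0.00350, edgeR).

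The median log2 fold change of the 38 genes was −0.39 against 0.01 over all tested genes, and 29 had a lower mean in mutant vehicle. In 7 of 38 genes all mutant vehicle libraries lay below all WT libraries, where 22.1% of tested genes did: Hist1h3f, Hist1h2ae, Hist1h4d, Hist1h2be and Hist2h2ac beside the 2 that passed. In 0 genes did all mutant vehicle libraries lie above WT, where 22% of tested genes did. Without SHP099 replicate 3, which is in neither group but shares the estimate of spread, Hist1h2be and Hist1h4d passed as well, at −0.87 ± 0.27 (adjusted p = 0.0416, edgeR) and −0.67 ± 0.22 (adjusted p = 0.0470, edgeR); 15.4% of genes then fell, 12.6% rose and 28.1% were called. Hist3h2a had 1.86, 2.65 and 1.82 CPM in mutant vehicle and 2.12, 1.53 and 2.26 CPM in WT, and Hist2h2be 4.37, 4.53 and 4.64 CPM in mutant vehicle against 4.10, 4.0 and 5.20 CPM in WT; both pairs of groups overlapped.

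Markers of other blood cells also differed in this comparison, where 14.6% of all tested genes rose and 15.7% fell. In mutant vehicle against WT, 10 of 16 mature neutrophil markers, 11 of 14 mast cell and basophil markers, 11 of 11 megakaryocyte markers and 9 of 10 erythroid markers fell, and their summed levels were 19310 to 20240 CPM, 1290 to 1863 CPM, 1797 to 2480 CPM and 796.2 to 843.1 CPM in mutant vehicle, against 26820 to 35530 CPM, 2538 to 2887 CPM, 4078 to 5112 CPM and 953.2 to 1195 CPM in WT. Within these lists 1 neutrophil marker, Mmp8, and 1 erythroid marker, Tfrc, rose. Of 15 monocyte markers 4 rose and 2 fell, and of 15 myeloid progenitor markers 1 rose and 0 fell. The globin genes of the erythroid list were listed at 0 in every library. The part of these cells in the histone values was not tested.

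SHP099-treated mutant cells were set against WT vehicle to place them relative to normal cultures. Hist3h2a and Hist2h2bb rose and Hist1h1c fell, 3 of 38 genes, where 15.3% of tested genes rose, 16.5% fell and 31.8% were called. Without SHP099 replicate 3 the same 3 passed, where 8.11% of genes rose, 13.2% fell and 21.3% were called. Without SHP099 replicate 1, 6 of 37 passed, where 26.0% of genes were called, and without SHP099 replicate 2, 8 of 37, where 23.0% were. Hist1h1c, at 29.4, 30.7 and 37.6 CPM with SHP099 and 47.6, 46.6 and 50.2 CPM in WT, stayed below every WT library, at a log2 fold change of −0.57 ± 0.09 (adjusted p = 0.00180, edgeR), or −0.70 ± 0.07 without SHP099 replicate 3 (adjusted p = 0.000677). Hist3h2a, at 3.40, 3.56 and 3.43 CPM with SHP099 and 2.12, 1.53 and 2.26 CPM in WT, lay above every WT library at 0.80 ± 0.19 (adjusted p = 0.0112, edgeR), or 0.79 ± 0.22 without replicate 3 (adjusted p = 0.0338). Hist2h2bb, at 0.663, 0.523 and 4.47 CPM with SHP099 and 0.344, 0.218 and 0.193 CPM in WT, also lay above every WT library. Its log2 fold change was 2.88 ± 0.84 (adjusted p = 0.0277, edgeR), or 1.22 ± 0.33 without replicate 3 (adjusted p = 0.0324). Hist2h2bb passed the count filter only with the SHP099 libraries, so these values are a description. Hist1h2bc overlapped WT, at 3.87, 4.39 and 4.93 CPM with SHP099 against 6.85, 4.58 and 5.18 CPM in WT. The median log2 fold change of the members was 1.06 with all libraries and 0.04 over the 35 genes kept without replicate 3. All SHP099 libraries lay above all WT libraries for 5 genes and below for 1, where 24.0% and 23.7% of tested genes did. With replicates 1 and 2 alone it was 5 and 4, where 26.9% and 26.5% of tested genes did. Hist2h2bb and Hist1h2ab, among the 5, passed the count filter only with the SHP099 libraries. Cell-type markers differed here too: 11 of 11 megakaryocyte, 8 of 10 erythroid, 5 of 14 mast cell and basophil and 4 of 16 mature neutrophil markers were lower with SHP099 than in WT, and 9 of 15 monocyte markers were higher. The megakaryocyte list summed to 2208 to 2967 CPM with SHP099 and 4078 to 5112 CPM in WT. Their part in the histone values was not tested.

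**Figure D5:**
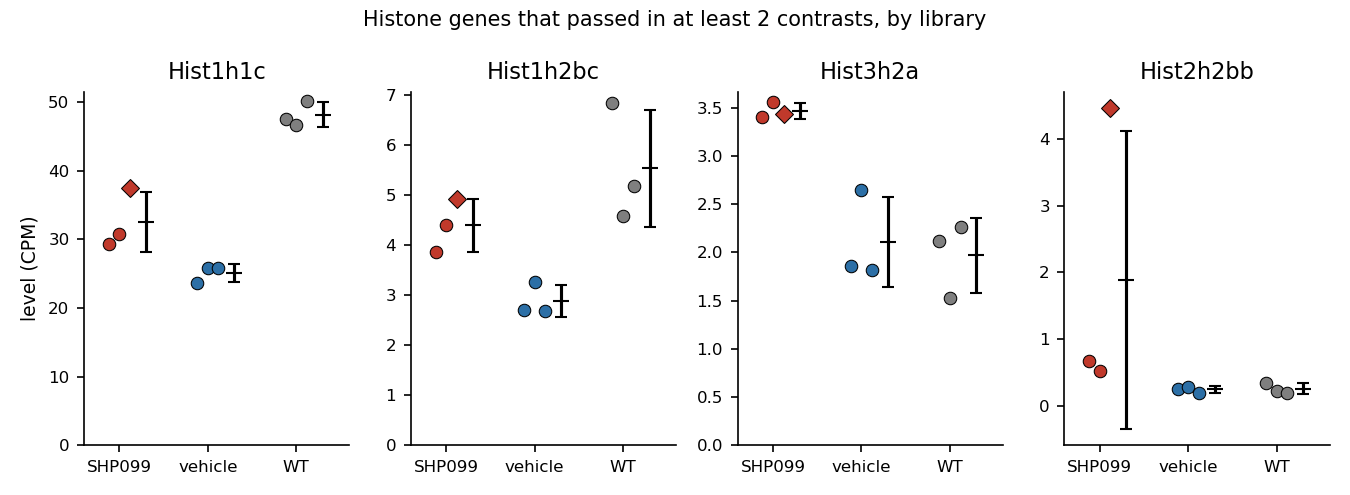
Level (CPM) of the 4 canonical histone genes that passed in at least 2 of the 3 comparisons, in each library (points; diamond, SHP099 replicate 3) with the group mean and SD (n = 3). Hist1h1c is lowest in mutant vehicle and highest in WT with SHP099 between, Hist3h2a is high in all 3 SHP099 libraries, and the Hist2h2bb mean rests on the diamond.

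The machinery that makes and destroys histone mRNA was read from gene lists in the same fit. Slbp, which binds the stem-loop, had 140.9, 136.2 and 138.5 CPM with SHP099, 135.0, 132.8 and 130.0 CPM in mutant vehicle and 144.4, 143.5 and 142.5 CPM in WT. It was not called with SHP099 (log2 fold change 0.06 ± 0.03), though the groups did not overlap, and fell in mutant vehicle against WT (−0.11 ± 0.03, adjusted p = 0.0247, edgeR), a call lost under 8 of 22 alternatives (adjusted p = 0.0101 to 0.149). Npat had 49.5, 48.0 and 49.4 CPM with SHP099, 62.0, 54.4 and 56.3 CPM in mutant vehicle and 52.5, 51.6 and 49.9 CPM in WT: it fell with SHP099 (−0.23 ± 0.05, adjusted p = 0.0106, edgeR) and rose in mutant vehicle against WT (0.17 ± 0.05, adjusted p = 0.0337). The rise was lost under 10 of 22 alternatives, among them the fit without SHP099 replicate 3 (adjusted p = 0.0512, edgeR) and each length and GC correction, which brought it down to 0.04; the same corrections ended the fall with SHP099 (−0.11 at the least).

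Of 23 genes for histone mRNA transcription and processing, 1 rose and 6 fell with SHP099, 8 rose and 1 fell in mutant vehicle against WT, and 4 rose and 3 fell in SHP099-treated mutant against WT. Over all tested genes 10.3% rose and 11.5% fell with SHP099, 14.6% rose and 15.7% fell in mutant vehicle against WT, and 15.3% rose and 16.5% fell in SHP099-treated mutant against WT, so the counts against WT in treated cells are near the background. Those that fell with SHP099 were Cstf2, a cleavage stimulation factor subunit (−0.27 ± 0.04), Srrt, the cap-associated protein Ars2 (−0.24 ± 0.04), the scaffold Sympk (−0.17 ± 0.03), the histone locus body protein Casp8ap2 (−0.24 ± 0.05), Hinfp, an activator of H4 genes (−0.25 ± 0.06), and Npat. Lsm10, a U7 subunit, rose (0.32 ± 0.06). Casp8ap2, Cstf2 and Npat were among the 8 that rose in mutant vehicle against WT, at 0.21, 0.15 and 0.17. The same 6 fell without SHP099 replicate 3.

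Of 12 genes for histone mRNA decay, 7 fell and 0 rose with SHP099, with 0 rising at an unadjusted p below 0.05 in edgeR and 0 called higher by DESeq2, beside the 11.5% of all genes that fell. Smg1, a kinase that phosphorylates Upf1, had 99.0, 103.5 and 102.7 CPM with SHP099, 137.9, 135.9 and 134.7 CPM in mutant vehicle and 112.9, 114.9 and 114.1 CPM in WT. It fell with SHP099 (−0.42 ± 0.03, adjusted p = 0.000248, edgeR) and rose in mutant vehicle against WT (0.26 ± 0.03, adjusted p = 0.000749). Upf1, the helicase recruited to histone mRNA when replication stops, and Xrn1, a 5′ to 3′ exonuclease, fell with SHP099 by 0.31 and 0.41 on the log2 scale, without overlap of the groups. Zcchc6, a terminal uridylyltransferase, fell in mutant vehicle against WT (−0.26 ± 0.05, adjusted p = 0.00310, edgeR). In all, 4 of the 12 rose and 1 fell in that comparison, where 14.6% of all tested genes rose and 15.7% fell.

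Replacement histones, 17 genes in the table, reached summed levels of 2991 to 3064 CPM with SHP099, 2622 to 2779 CPM in mutant vehicle and 2440 to 2614 CPM in WT. Of 11 tested, 7 rose and 0 fell with SHP099 (10.3% of all genes rose), with 0 lower at an unadjusted p below 0.05 and 0 lower in DESeq2; 3 rose without SHP099 replicate 3, namely H2afv, H2afx and H1f0. H2afv, an H2A.Z gene, had 79.6, 75.5 and 80.6 CPM with SHP099, 53.4, 55.6 and 55.6 CPM in mutant vehicle and 62.0, 63.8 and 63.4 CPM in WT. It rose with SHP099 (0.52 ± 0.04, adjusted p = 0.000185, edgeR) and fell in mutant vehicle against WT (−0.20 ± 0.04, adjusted p = 0.004). H2afy, for macroH2A1, had 965.5, 975.0 and 966.1 CPM with SHP099, 835.2, 898.0 and 873.6 CPM in mutant vehicle and 584.1, 636.7 and 621.5 CPM in WT, and rose in mutant vehicle against WT (0.50 ± 0.05, adjusted p = 0.000199, edgeR). H3f3b, an H3.3 gene, differed by 0.04 ± 0.04 with SHP099. SHP099 replicate 3 was level with the other treated libraries for all 3 genes.

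Of 35 histone chaperone genes, 4 rose and 11 fell with SHP099, where 10.3% of all genes rose and 11.5% fell, the falls including Supt6, a chaperone of elongating polymerase (−0.38 ± 0.04, adjusted p = 0.000434, edgeR), and 11 rose and 1 fell in mutant vehicle against WT, the rises including Rbbp7 and Npm1 (0.26 ± 0.03 and 0.47 ± 0.06). Of 44 S-phase genes, which include Slbp, 2 rose and 7 fell with SHP099, the falls including the polymerase gene Pole (−0.41 ± 0.05, adjusted p = 0.00104, edgeR) and the licensing factor Cdt1 (−0.22 ± 0.03, adjusted p = 0.00259), while 4 rose and 4 fell in mutant vehicle against WT. Over all genes the shares were 10.3% higher and 11.5% lower with SHP099 and 14.6% higher and 15.7% lower in mutant vehicle against WT. The S-phase genes summed to 8871 to 9161 CPM with SHP099, 9265 to 9635 CPM in mutant vehicle and 9119 to 9315 CPM in WT. The canonical histone sum thus stood higher, and the S-phase sum lower, in all SHP099 libraries than in all mutant vehicle libraries. Whether the share of cycling cells moved the histone values was not tested.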

How the data were processed

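Per the labels' protocols, the 9 RNA-seq libraries came from a TruSeq stranded mRNA kit. STAR, featureCounts, Subread, FastQC and mm10 appear in the submitters' processing notes, with no version; the sources used here do not state the annotation, strand setting or handling of multiply mapped reads. The authors deposited raw counts per gene symbol, whole numbers for 24421 symbols in 9 columns. The column of SHP099 replicate 3 differs from its sample title in the last character and was matched as the only one of that genotype, treatment and number.

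Genes with at least 10 counts in 3 or more libraries were tested with the edgeR 4.0.16 quasi-likelihood test (R 4.3.3, TMM scaling, 1 mean per group over all 9 libraries, two-sided, Benjamini-Hochberg over all 13228 genes, threshold 0.05); the biological coefficient of variation was 9.04%. Levels are CPM on TMM-scaled sizes; those per kb use GENCODE M21 transcript lengths. The code was tested on simulated data. DESeq2 1.42.0, other scalings and filters, each library left out, a replicate block and a correction for transcript length and GC content were alternatives. Same-numbered mutant vehicle and SHP099 libraries correlated at 0.549, 0.602 and 0.568 in their deviations from group means, and differently numbered ones at −0.359 to −0.235; WT numbers did not pair (−0.129 to −0.066). Replicates differed by more than sampling noise (chi-square over its degrees of freedom from 10.9 to 114).

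Members named in full were, by a written rule, the most abundant per kb of each class, called members, and all of clusters with 3 or fewer kept; Hist1h4f, Hist1h1e, Hist1h1b, Hist1h4k, Hist2h4 and the genes listed without overlap were named after their values were seen. Other genes were Slbp, Npat, Rn45s, Rmrp, Rpph1, Tet2 and called genes of the lists with the smallest p; Hinfp, Casp8ap2 and H3f3b were named outside that rule, after their values were seen. The members and the gene lists were chosen with earlier results of these data known.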

Additional observations from a re-analysis of the deposited data

How the results depend on the processing

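The 2 genes that fell in mutant vehicle against WT, Hist1h1c and Hist1h2bc, passed under all 22 alternatives, as did Hist1h1c in SHP099-treated mutant against WT. The count of members higher with SHP099 than in mutant vehicle, 8 of 38, was not stable, and neither was the share of all genes higher. That share was 10.3% in the reported fit and stands in brackets after each count that follows. DESeq2 gave 16 (11.0%), and a minimum of 1 CPM in 3 libraries gave 4 of the 9 members tested (11.9%). The 2 groups alone gave 3 (8.55%), and removing the length and GC trend gave 2 (7.63%). With the replicate block the count was 7 in the fit of all 9 libraries (10.8%) and 2 together with the length and GC correction (8.01%). On the mutant libraries alone the block gave 28 (21.5%), and 5 without the pair of replicate 3 (14.7%). The block on all libraries but SHP099 replicate 3 gave 0 (2.87%), as did the length and GC correction without that library (3.91%). In each of these fits, 5 were higher at an unadjusted p below 0.05 in edgeR. RLE scaling without that library gave 2 (5.65%). The fits on mutant libraries alone and those that combine a choice with leaving out SHP099 replicate 3 were chosen after seeing the data. Leaving out 1 library gave 0 to 15. Without mutant vehicle replicate 1 the count was 0 (6.7%), with 16 at an unadjusted p below 0.05 in edgeR. It was 1 without mutant vehicle replicate 3 (6.05%) and 3 without mutant vehicle replicate 2 (8.18%). It was 5 without WT replicate 2 (7.93%), 15 without SHP099 replicate 2 (7.25%) and 2 without SHP099 replicate 3 (5.15%). Fits with 1 library fewer assume the remaining ones of that group vary like the others. Mutant vehicle against WT gave 2 to 4 members when 1 library was left out, where 22.8% to 29.3% of all genes were called. It gave 4 with RLE scaling without SHP099 replicate 3, where 28.2% were. SHP099-treated mutant against WT gave 3 in the reported fit (31.8% of all genes called) and 1 with the block without SHP099 replicate 3 (16%). Leaving out 1 library gave up to 8: 6 without SHP099 replicate 1 (26%) and 8 without replicate 2 (23%). As a difference of mean log2 levels, the sum differed by −0.70 between mutant vehicle and WT, and by −0.41 without Hist1h1c. Between SHP099-treated mutant and WT the sum has no settled direction: the difference of mean log2 levels was −0.05, while the arithmetic means were 83.3 and 81.2 CPM; it was −0.39 without SHP099 replicate 3 and 0.45 without Hist1h1c (leaving out Hist1h1c was chosen after seeing the data). Among single genes, calls of Npat and Slbp in mutant vehicle against WT were lost under 10 and 8 of 22 alternatives, and Dcp2, a decapping enzyme that fell with SHP099, turned to a log2 fold change of 0.0093 with the length and GC correction, alone or with the replicate block, and 0.0166 when SHP099 replicate 3 was also left out. The cause of these changes was not tested. Depth limits the rarer members: 29 of 38 stayed under 1 CPM in all but 2 libraries or fewer, where the largest differences rest on SHP099 replicate 3.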
